A study of Montastraea cavernosa with 311 samples.

Results

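Peptidases and digestive proteases of the stony coral Montastraea cavernosa are described here across natural colonies and a transplant experiment. Members were host isogroups (clusters of transcripts treated as 1 gene) whose deposited name contains peptidase, trypsin, cathepsin, proteinase, protease or elastase. Names with ubiquitin, proteasom, inhibitor or caspase were left out. The rule found 390 named isogroups, and 289 of them have a row in the count table, which holds 17901 host isogroups. No measured value entered the rule.

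Peptidases cut peptide bonds. Endopeptidases such as chymotrypsin and astacin open a protein inside the chain, and carboxypeptidases and aminopeptidases then remove residues from its ends. In corals and other cnidarians, gland cells of the gastrodermis and mesenterial filaments secrete such enzymes onto prey, and digestion is finished inside cells, where cathepsins work in lysosomes. Members of the same families also act outside digestion, for example in the extracellular matrix (matrix metallopeptidases, ADAM and ADAMTS enzymes), in the mitochondrion and in the cutting of signal peptides.

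The study sequenced 3' tags from 311 coral libraries that also contain the Cladocopium symbiont, with 265 natural libraries from shallow or mesophotic depth at 4 sites labelled WFGB, EFGB, PRTER and CBC. Another 46 libraries carry a time label of 6 or 12, for which no unit is given, and belong to transplants, mesophotic controls or shallow controls at WFGB and EFGB. Title tags tie mesophotic controls and transplants, except transplant replicates 3 and 4 at time 12, to natural colonies of mesophotic depth, and the shallow controls to shallow ones, which gave 26 baseline libraries, 24 of them used. Libraries with at least 20000 host counts were used, 253 natural and 45 timed ones. They number 41 mesophotic and 31 shallow at PRTER, 22 and 36 at CBC, 28 and 35 at WFGB, and 21 and 39 at EFGB. In the experiment they number 8 transplants, 7 mesophotic controls and 10 shallow controls at time 6, and 5, 6 and 9 at time 12. Apart from the title tags, no label says which libraries come from separate colonies, so p-values measure the spread between libraries.

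Host counts per library ranged from 2251 to 1145508 with a median of 126640 before any library was left out. Values below are CPM, an isogroup's counts scaled to the host total of its library. Tags come from transcript ends, so CPM was compared between genes without a length term, and isogroup lengths were not used here. The number of host isogroups detected per library differed between groups, with medians of 1820 mesophotic and 1753 shallow at PRTER, 1244 and 1257 at CBC, 3740 and 4449 at WFGB, and 1782 and 3570 at EFGB. PRTER and CBC libraries were in barcode runs of their own, as inferred from library numbers, so site and run cannot be told apart there. Titles also carry codes such as X-14 and V-16, read here as collection campaigns, which no label states. The code X-14 marks 48 shallow libraries of WFGB and EFGB and no mesophotic library. In bulk tissue, fewer cells of a type and less RNA per cell cannot be told apart.

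Peptidase transcripts made up a small part of the host counts. Over the 298 libraries used, members took 0.210% of host counts at the lowest, 1.498% at the median and 3.54% at the highest. Mesophotic group medians in the natural libraries were 1.40% (WFGB), 1.41% (EFGB), 1.64% (PRTER) and 1.39% (CBC), and the shallow ones in the same order were 1.38%, 1.44%, 1.82% and 1.48%. The ranges of all 8 groups overlapped. A library held between 8 and 115 detected members, with a median of 35.5. Members formed 1.60% of the isogroups detected in the median library, beside 1.61% of all host isogroups in the table, so their number followed the number of isogroups that each library detected.

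**Figure D1:**
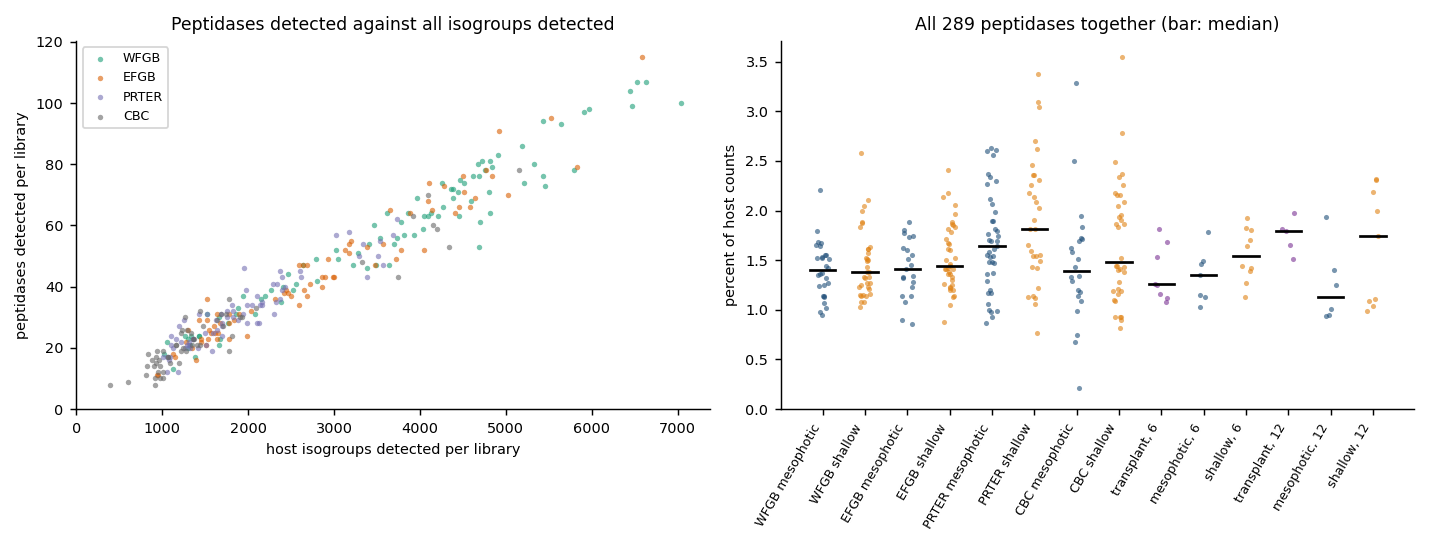
Left, number of peptidases detected against number of host isogroups detected, 1 point per library, over the 298 libraries used. Right, all 289 peptidases together as percent of host counts by group, with a bar at the median. The left panel shows both numbers rising together, and the right panel shows group medians between 1.13% and 1.82% with overlapping libraries.

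A few isogroups supplied most of the peptidase counts. The 10 most abundant members together held 71.3% of peptidase counts in the median library. At the other end, 136 of the 289 members were detected in at most 10 of 311 libraries, 26 were detected in over 50% of the natural libraries used and 4 in over 90%. The filters of the tests passed 60 members in edgeR and 105 in limma for the natural libraries, and 50 and 112 for the experiment. The 10 most abundant are described first, by role, and all 10 passed the filters.

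Astacins are zinc endopeptidases of the M12 family, known in Hydra from head regeneration and in many animals from digestion. Mcavernosa12310 (astacin-like metalloendopeptidase) was the most abundant peptidase of the coral, with a mean of 5216 CPM over the natural libraries, and ranked 24 among all host isogroups. It was detected in 251 of 253 natural libraries and was the leading member in 198 of the 298 libraries used, where it held a median of 27.5% of peptidase counts. At WFGB it lay between 921 and 7005 CPM with a median of 3226 in mesophotic libraries and between 1721 and 8055 with a median of 3212 in shallow ones. Its mesophotic and shallow medians were 6825 and 6757 CPM at PRTER, 4352 and 4465 at CBC, and 3429 and 3267 at EFGB. Medians of the 2 depths were close at each site, and the PRTER medians were the highest.

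A second astacin-like isogroup, Mcavernosa29804, had a mean of 249 CPM and was detected in 178 of 253 natural libraries. Its medians ran from 270 CPM in mesophotic WFGB libraries and 257 CPM in mesophotic PRTER libraries down to 4.55 and 0.0 CPM in mesophotic and shallow CBC libraries. At CBC it was detected in 11 of 22 mesophotic and 14 of 36 shallow libraries. Thus the class of 27 astacins with counts rested on 1 isogroup, Mcavernosa12310, which supplied 93.0% of the class mean.

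Chymotrypsins are secreted serine endopeptidases that cut after large hydrophobic residues. Mcavernosa20219 (chymotrypsin-like) supplied 83.0% of the mean counts of 35 serine endopeptidases of the chymotrypsin and trypsin kind. Its mean was 1590 CPM and it was detected in 247 of 253 natural libraries. Its levels by site and depth are given with the depth comparison below.

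Among exopeptidases, Mcavernosa15249 (carboxy-peptidase), which by its name removes residues from the carboxyl end, had a mean of 1704 CPM and was the leading member in 55 of the 298 libraries. Its medians were 754 CPM mesophotic and 557 CPM shallow at CBC, 6.17 and 280 at PRTER, 491 and 2620 at EFGB, and 1442 and 2734 at WFGB. In mesophotic PRTER libraries it ranged from 0.0 to 5323 CPM and was detected in 27 of 41. The mesophotic medians of WFGB, EFGB and PRTER were below the shallow ones, but all pairs of ranges overlapped and neither tool passed the threshold at any site. At EFGB the difference was -0.66 in edgeR (SE 0.686, adjusted p 0.575) and -1.76 in limma (SE 0.707, adjusted p 0.0639).

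Mcavernosa29351 (aminopeptidase, acting at the amino end) had a mean of 601 CPM. Its median was 678 CPM in mesophotic EFGB libraries, 349 and 389 CPM at the 2 depths of PRTER, and 0.0 CPM in mesophotic CBC libraries, where 10 of 22 had a count. Mcavernosa21929 (serine carboxypeptidase 1) had a mean of 293 CPM and was more evenly spread, with medians from 44.8 CPM in mesophotic CBC libraries to 305 CPM in mesophotic EFGB libraries. Mcavernosa32290 (peptidase M20 domain containing 2) was detected in 141 of 253 natural libraries, and its group medians lay between 0.0 CPM at both depths of CBC and 161 CPM in mesophotic PRTER libraries.

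Of the lysosomal kind, Mcavernosa22587 (cathepsin) led with a mean of 423 CPM. It was higher in the median library at WFGB (246 CPM mesophotic, 233 shallow) and EFGB (546 and 296) than at PRTER (27.4 and 59.5) and CBC (32.8 and 11.7). Mcavernosa13270, named for an ADAM metallopeptidase with thrombospondin motifs, a family of secreted matrix enzymes, had a mean of 923 CPM. Its highest median, 1835 CPM, was in shallow CBC libraries, and its lowest, 240 CPM, in the mesophotic libraries of the same site. It supplied 79.4% of the mean counts of the ADAM and ADAMTS class. At CBC that class ranged from 0.0 to 5437 CPM in mesophotic and from 0.0 to 5594 CPM in shallow libraries, and limma called 0 members there. Mcavernosa28252, named only as a protease, had a mean of 322 CPM and a median of 4.15 CPM in mesophotic EFGB libraries beside 285 CPM in shallow ones.

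**Figure D2:**
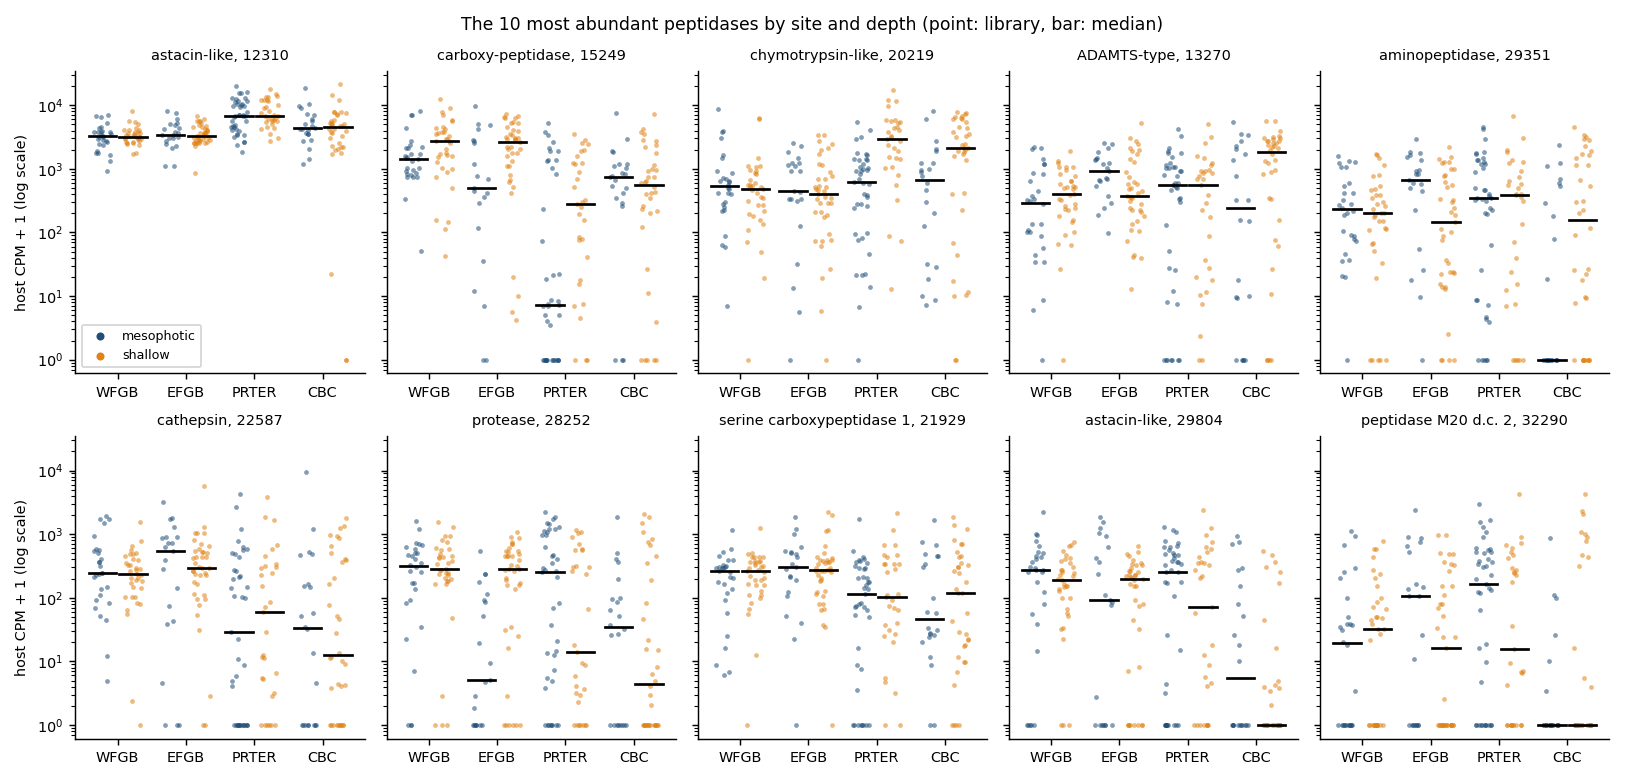
CPM plus 1 on a log scale of the 10 most abundant peptidases, with 1 panel per isogroup, 1 point per natural library, the 4 sites on the x axis, both depths in colour and bars at the medians. Mcavernosa12310 sits near its medians of 3212 to 6825 CPM in nearly all libraries, while the others spread widely within each group, many of them down to 0.

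The abundant members did not move together strongly. Pearson correlations of log2 CPM within the 8 natural groups over 253 libraries were computed for all 45 pairs of the 10, and ranged from -0.17 to 0.27 with a median of 0.03. Spearman's rho ranged from -0.23 to 0.31 with a median of 0.026. The highest values were found for Mcavernosa28252 and Mcavernosa29804, with r of 0.27 and rho of 0.28, and for Mcavernosa20219 and Mcavernosa13270, with r of 0.26 and rho of 0.31. For the first pair r was 0.12 after the number of detected isogroups was taken out, and for the second 0.24. The lowest were those of Mcavernosa13270 and Mcavernosa28252, with r of -0.17 and rho of -0.23. All pairs share library depth, and in counts this sparse these are weak correlations. Permutation tests (100000 resamples, adjusted over the 45 pairs) passed 0.05 for 2 pairs by r, both positive and both named above, and for 10 by rho, 6 positive and 4 negative.

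The depth comparison asked which peptidases differ between mesophotic and shallow colonies, over the 4 sites and at each site. Differences are log2, mesophotic minus shallow, with Benjamini-Hochberg adjustment over all host isogroups tested and a threshold of 0.05. For the mean over the 4 sites, edgeR called 16 of 60 members (26.7%), 5 higher and 11 lower, where it called 15.9% of all isogroups tested. limma called 0 of 105 members, with 16 at an unadjusted p under 0.05, and 0.543% of all isogroups. Shares of all isogroups are for adjusted calls, here and below. The share at an unadjusted p under 0.05 is not given, so member counts at that level are not a result about peptidases. The median member difference was -0.21 in edgeR and -0.13 in limma, beside -0.09 and -0.12 over all isogroups tested.

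By class, edgeR's calls for the mean over sites were uneven, with few members tested in each class. Of the matrix metallopeptidases tested, 2 of 3 were called higher, and Mcavernosa03317, of a family that cuts extracellular matrix proteins, was detected in 69 of 112 mesophotic and 73 of 141 shallow libraries with a difference of 1.58 (SE 0.425, edgeR adjusted p 0.00352). Of the signal, processing and organelle peptidases, 1 of 7 was called higher and 3 lower. Of the cathepsins and papain-like proteases, 1 of 4 was called, Mcavernosa08236 (cathepsin Z, a lysosomal carboxypeptidase in mammals), lower by edgeR with a difference of -2.52 (SE 0.463, adjusted p 8.53e-06). It was detected in 21 of 112 mesophotic and 50 of 141 shallow libraries, and its median was 0.0 CPM at both depths. None of the 5 dipeptidyl, tripeptidyl and prolyl peptidases and dipeptidases tested was called by edgeR, and 1 had an unadjusted p under 0.05. limma gave adjusted p of 0.410 for Mcavernosa03317 and 0.162 for Mcavernosa08236.

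Some edgeR calls belong to names that only cite a peptidase or that the excluded words were meant to catch. Mcavernosa07442 carries the name of a LON peptidase N-terminal domain and RING finger protein, a ubiquitin ligase family in mammals, and was called lower by edgeR with a difference of -2.57 (SE 0.457, adjusted p 4.07e-06). It was detected in 15 of 112 mesophotic and 33 of 141 shallow libraries. Mcavernosa05915 (apoptosis-related cysteine peptidase, a name used for caspases) was called higher by edgeR with a difference of 1.70 (SE 0.448, adjusted p 0.00282) and detected in 37 of 112 mesophotic and 29 of 141 shallow libraries. limma called neither of them, with adjusted p of 0.385 and 0.417. The members with counts include 17 names of the first kind and 10 of the second.

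Chymotrypsin-like Mcavernosa20219 was lower in mesophotic than in shallow PRTER libraries in both tools. Its lowest, median and highest values were 0.0, 620 and 5454 CPM in 41 mesophotic libraries and 12.1, 2974 and 17653 CPM in 31 shallow ones. The ranges overlapped, but 4 of 41 mesophotic libraries lay above the shallow median and 5 of 31 shallow libraries below the mesophotic one. More than 1000 CPM was reached by 14 of 41 mesophotic and 25 of 31 shallow libraries. The shallow median was 4.80 times the mesophotic one. The difference was -2.36 in edgeR (SE 0.556, adjusted p 0.000481) and -2.32 in limma (SE 0.563, adjusted p 0.0162). It passed the threshold under all 11 alternative settings, with differences from -2.88 to -2.13. The settings that leave out code X-14 are among them and removed no PRTER library.

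Within barcode runs the chymotrypsin difference had the same sign. It was -2.32 on the log2 CPM scale (SE 0.601, permutation p 0.00026, adjusted p 0.0104 over 40 within-batch tests) in run 2 with 20 mesophotic and 17 shallow libraries, and -2.18 (SE 0.882, permutation p 0.0199, adjusted p 0.151) in run 3 with 21 and 14. By title code it was -1.90 (SE 1.54, exact permutation p 0.145) among 22 mesophotic and 5 shallow libraries with code VIII-13. Titles of 19 mesophotic and 26 shallow libraries carry only a prefix and a number and no such code, so their campaign is not known. Among these the difference was -1.82 (SE 0.620, permutation p 0.00576, adjusted p 0.0936). Detected isogroups at PRTER had close medians at the 2 depths, 1820 and 1753. Symbiont counts moved with depth at this site, with a median of 20.1% of all counts in mesophotic libraries (quartiles 16.4% and 22.97%) and 10.8% in shallow ones (6.92% and 15.2%). The part of the symbiont share in the chymotrypsin difference was not tested.

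At the other sites the chymotrypsin-like Mcavernosa20219 passed edgeR's threshold at CBC and no threshold at WFGB or EFGB. At CBC it had medians of 678 CPM mesophotic and 2128 CPM shallow, with 7 of 22 and 25 of 36 libraries above 1000 CPM. The CBC difference was -1.78 in edgeR (adjusted p 0.0328) and -1.36 in limma (adjusted p 0.766), and it passed the threshold in 3 of 11 alternatives. At WFGB the medians were 531 and 473 CPM and at EFGB 440 and 394 CPM with overlapping ranges. For the mean over sites edgeR gave -1.08 (adjusted p 0.00598) and limma -0.80 (adjusted p 0.207). The test of depth by site gave an edgeR adjusted p of 0.00961 and a limma adjusted p of 0.0528. Both isogroups with nematocyte names, markers of stinging cells, had medians of 0.0 CPM in every group. Mcavernosa28617 had no count at PRTER or CBC. Mcavernosa30164 was detected in 4 of 41 mesophotic PRTER libraries, up to 896 CPM, and 0 of 31 shallow ones, and in 0 of 22 mesophotic CBC libraries and 4 of 36 shallow ones, up to 781 CPM.

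**Figure D3:**
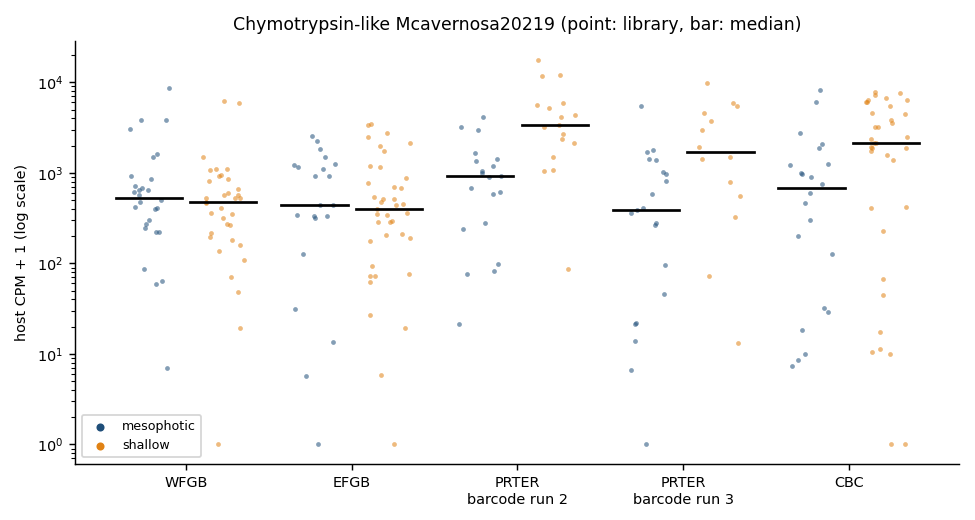
CPM plus 1 on a log scale of Mcavernosa20219 in the natural libraries by site and depth, with PRTER divided by barcode run, 1 point per library and a bar at the median. The shallow medians of PRTER run 2 (3333 CPM), PRTER run 3 (1718 CPM) and CBC (2128 CPM) stand above the mesophotic ones (914, 390 and 678 CPM), and the medians of WFGB and EFGB lie between 394 and 531 CPM.

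At PRTER edgeR called 10 of 60 members, 5 higher and 5 lower, with 20.4% of all isogroups called, and with PRTER fitted alone it called 1, Mcavernosa20219. limma called 1 of 105 members, Mcavernosa20219, with 0.603% of all isogroups called. edgeR alone called 9 members, 4 of which are described. Mcavernosa17701 (mannan-binding lectin serine peptidase 1, a complement-activating protease in mammals) was called higher by edgeR and detected in 6 of 41 mesophotic and 2 of 31 shallow libraries, with an edgeR difference of 5.42 (SE 0.899, adjusted p 4.31e-07) and a limma difference of 0.57 (adjusted p 0.642). Mcavernosa17717 (named only as a specific peptidase) was detected in 18 of 41 mesophotic and 6 of 31 shallow libraries, with an edgeR difference of 3.42 (SE 1.04, adjusted p 0.00937) and a limma difference of 1.31 (adjusted p 0.130). Mcavernosa08236 (cathepsin Z) and Mcavernosa10847 (named after the Hydra astacin FARM-1) were called lower by edgeR, adjusted p 2.01e-05 and 0.000508, and detected in 1 and 2 of 41 mesophotic and in 4 and 6 of 31 shallow libraries.

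At CBC edgeR called 22 of 60 members (36.7%), 5 higher and 17 lower, where it called 28.3% of all isogroups. limma called 0 of 105 members there, with 7 at an unadjusted p under 0.05, and 0.241% of all isogroups. The median over all isogroups tested was -0.26 in edgeR and 0.09 in limma, and the members' median was -0.64 and 0.03, so the balance of directions changed with the tool. Both matrix metallopeptidases called at CBC were higher in mesophotic libraries. Mcavernosa03317 was detected in 10 of 22 mesophotic and 4 of 36 shallow libraries, with an edgeR difference of 4.17 (SE 0.935, adjusted p 0.000192), and Mcavernosa03319 in 11 of 22 and 9 of 36, with 3.29 (SE 0.728, edgeR adjusted p 0.00016). Their limma differences were 1.66 (adjusted p 0.476) and 0.75 (adjusted p 0.657). Mcavernosa00055 (named for a dipeptidyl-peptidase domain without catalysis) was detected in 0 of 22 mesophotic and 7 of 36 shallow libraries and was called lower by edgeR, adjusted p 2.25e-07, beside a limma adjusted p of 1.0. Mcavernosa29915 (OMA1 homolog, a zinc metallopeptidase of the inner mitochondrial membrane) was detected in 7 of 22 and 12 of 36. It was called lower by edgeR (-6.535, SE 1.257, adjusted p 1.49e-05), beside a limma difference of -0.30 (adjusted p 1.0). The edgeR difference of Mcavernosa00055 was -10.15 (SE 1.61). Of the counts over all natural libraries, 1 library held 52.9% for Mcavernosa00055 and 50.03% for Mcavernosa29915. With CBC fitted alone edgeR called 0 members.

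At EFGB edgeR called 8 of 60 members, 2 higher and 6 lower, with 8.75% of all isogroups called, and 0 with EFGB fitted alone. limma called 18 of 105 members (17.1%), all lower in mesophotic libraries, where it called 16.4% of all isogroups. The members' share in limma was thus near that of all isogroups. With the number of detected isogroups as a covariate limma called 0 members, and that number had medians of 1782 mesophotic and 3570 shallow at this site. Both tools called 4 members, all lower.

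Of the 4 members called by both tools at EFGB, 3 were detected in fewer than 50% of its libraries and Mcavernosa29915 in 42 of 60. Mcavernosa07441 (LON peptidase N-terminal domain and RING finger) was detected in 3 of 21 mesophotic and 21 of 39 shallow libraries, with an edgeR difference of -2.96 (SE 1.02, adjusted p 0.0482) and a limma difference of -1.44 (SE 0.390, adjusted p 0.011). Mcavernosa03319 (matrix metallopeptidase) was detected in 5 of 21 and 23 of 39, with differences of -2.60 (SE 0.834, edgeR adjusted p 0.0312) and -1.11 (SE 0.317, limma adjusted p 0.0142). Mcavernosa31111 (ADAM 10, a shedding protease of the cell surface) was detected in 1 of 21 and 12 of 39, with -4.72 (SE 1.01, edgeR adjusted p 0.000538) and -1.01 (SE 0.307, limma adjusted p 0.0191). Mcavernosa29915 (OMA1 homolog) was detected in 11 of 21 and 31 of 39, with medians of 1.75 and 59.5 CPM and differences of -3.13 (SE 1.06, edgeR adjusted p 0.0427) and -1.39 (SE 0.429, limma adjusted p 0.0202).

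By title code the sign of these differences was mixed, except for Mcavernosa31111, which was lower in mesophotic libraries in both sets below. Code X-14 marks 25 of the 39 shallow EFGB libraries and no mesophotic one. Within code V-16, with 4 mesophotic and 10 shallow libraries, the log2 CPM differences were 0.43 for Mcavernosa07441, 0.37 for Mcavernosa03319, -0.36 for Mcavernosa31111 and 0.57 for Mcavernosa29915, with exact permutation p from 0.571 to 1.0. Among 16 mesophotic and 4 shallow libraries whose titles carry no such code they were -2.43 (exact permutation p 0.00702, adjusted p 0.0936), -0.23, -1.30 and -1.20. Within inferred barcode runs 4 to 7, with 2 to 6 mesophotic libraries each, all 4 differences were negative in each run, from -2.35 to -0.32. Their lowest adjusted p by exact permutation was 0.151, and X-14 libraries were kept in these runs. Without X-14 the Mcavernosa03319 difference was 0.64 in edgeR and 0.15 in limma, the opposite direction. The part of the title code and of detected isogroups in these calls was not tested.

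Among members called at EFGB by 1 tool, Mcavernosa28252 (protease) had 0.0, 4.15 and 540 CPM as lowest, median and highest in mesophotic libraries and 0.0, 285 and 1076 in shallow ones. It was lower in limma (-2.32, SE 0.662, adjusted p 0.0146) and not called by edgeR (-1.95, SE 0.879, adjusted p 0.142). With the detected-isogroup covariate its limma adjusted p was 0.589. Over all natural libraries its log2 CPM had the highest correlation with log2 detected isogroups within groups among the 10 most abundant members, r of 0.48 over 253 libraries. edgeR alone called Mcavernosa05847 (protease) lower with a difference of -4.27 (SE 1.07, adjusted p 0.00367) and Mcavernosa16763 (dipeptidyl peptidase 3, an enzyme of oligopeptide breakdown in the cytosol) higher with 3.50 (SE 0.996, adjusted p 0.0123). They were detected in 2 and 3 of 21 mesophotic and in 14 and 3 of 39 shallow libraries.

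At WFGB edgeR called 1 of 60 members, with 2.75% of all isogroups called, and 0 with WFGB fitted alone. limma called 0 of 105 members, with 14 at an unadjusted p under 0.05, and 0.573% of all isogroups. The member was Mcavernosa02764, named for the alpha subunit of the mitochondrial processing peptidase, which removes import sequences from mitochondrial proteins. It was detected in 8 of 28 mesophotic and 19 of 35 shallow libraries, with an edgeR difference of -3.39 (SE 0.988, adjusted p 0.0327) and a limma adjusted p of 0.150.

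**Figure D4:**
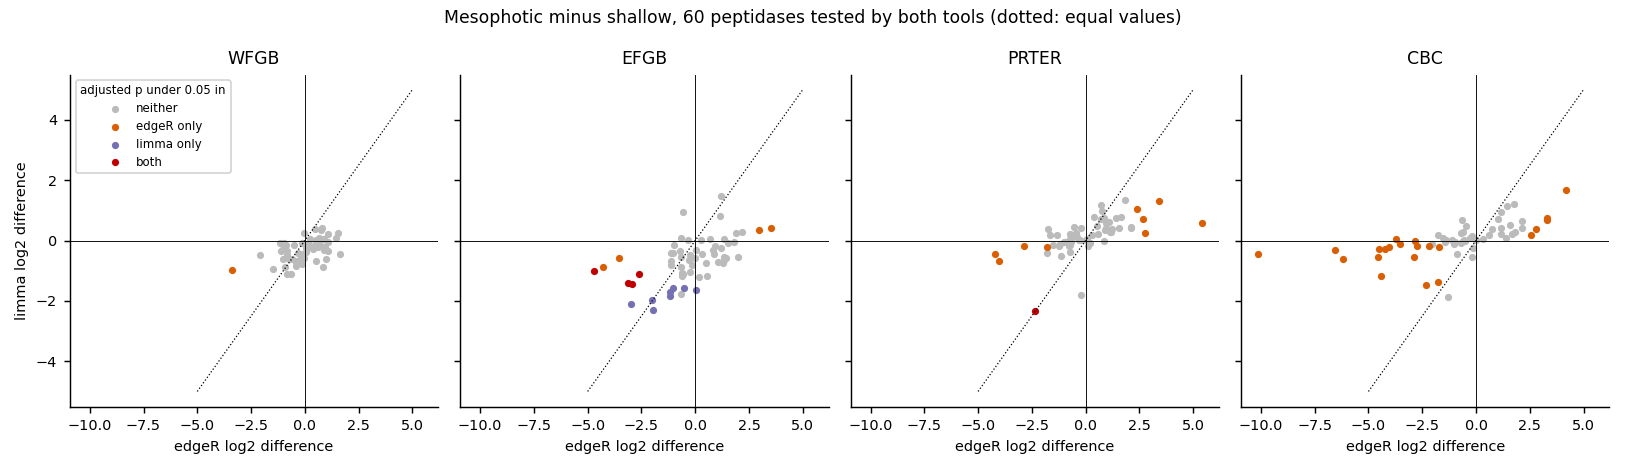
Mesophotic minus shallow log2 differences of the 60 peptidases tested by both tools, 1 panel per site, with edgeR on the x axis and limma on the y axis, and colours for the tools that passed an adjusted p of 0.05. Points on the dotted line have equal values, as Mcavernosa20219 at PRTER does (-2.36 and -2.32), while most other members called by edgeR have limma differences much nearer 0.

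Between EFGB and WFGB over both depths edgeR called 2 of 60 members, both lower at EFGB, with 7.32% of all isogroups called. limma called 24 of 105 members (22.9%), all lower at EFGB, where it called 25.7% of all isogroups, and 0 with the detected-isogroup covariate. Both tools called Mcavernosa03319, with an edgeR difference of -1.82 (SE 0.529, adjusted p 0.0178) and a limma difference of -0.90 (SE 0.217, adjusted p 0.00187). edgeR alone called Mcavernosa07442, with -2.43 (adjusted p 0.0146).

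Whether the depth difference varies with site was asked by an F test of depth by site. edgeR called 27 of 60 members and 43.2% of all isogroups. limma called 6 of 105 members, and 6.22% of all isogroups. By either tool the members' share was near that of all isogroups. Both tools called Mcavernosa03319, Mcavernosa29915 and Mcavernosa04556 (signal peptide peptidase like, named after a membrane protease that cuts signal peptides). Mcavernosa04556 was detected in 23.8% of mesophotic and 66.7% of shallow libraries at EFGB, and in 48.8% and 32.3% at PRTER (edgeR adjusted p 0.0318, limma adjusted p 0.0203). For Mcavernosa03319 the edgeR difference was 3.29 at CBC and -2.60 at EFGB.

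Lists of genes beside the members are given by their counts for the mean over sites, where edgeR called 15.9% of all isogroups tested, and their difference from the members was not tested. Of protease inhibitors 0 of 5 tested were called by edgeR, and 1 had an unadjusted p under 0.05. Of proteolytic enzymes that the words of the rule miss, 2 of 8 were called, both lower in mesophotic libraries, led by Mcavernosa02896 (named for thrombin, a serine protease of vertebrate clotting) with -1.65 (SE 0.449, edgeR adjusted p 0.00406). Of other digestive and lysosomal hydrolases 3 of 25 were called, all lower, led by Mcavernosa28398 (hormone-sensitive lipase, which releases stored fat) with -1.15 (SE 0.371, edgeR adjusted p 0.0182). limma called 0 of 9, 0 of 17 and 0 of 48 on these lists, with 0, 3 and 7 at an unadjusted p under 0.05. Both nematocyte isogroups failed the filters.

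The experiment asked how transplants differ from controls at each time, and how each arm differs between times. Transplant replicates 1 and 3 at time 6 carry the title code IX-16, while all controls of that time carry V-16. Arm and code therefore cannot be fully told apart at time 6. At time 6 transplants and mesophotic controls differed in 1 of 50 members by edgeR, which called 1.9% of all isogroups, and in 0 of 112 by limma, which called 0.0% of all isogroups and had 5 members at an unadjusted p under 0.05. Against shallow controls at time 6 edgeR called 1 of 50 members and 2.43% of all isogroups, and limma 0 of 112 and 0.0%, with 4 members at an unadjusted p under 0.05. The same isogroup was called in both, Mcavernosa29948 (chymotrypsin-like). It was detected in 0 of 8 transplants, 1 of 7 mesophotic and 3 of 10 shallow controls, with edgeR adjusted p of 0.045 and 0.0399. Without mesophotic control replicate 5 at time 6 its difference from mesophotic controls was -0.0016 in edgeR, and without shallow control replicate 10 its adjusted p against shallow controls was 0.105. Mesophotic and shallow controls at time 6 differed in 0 of 50 members by edgeR, with 8 at an unadjusted p under 0.05 and 4.94% of all isogroups called. limma gave 0 of 112, with 5 at an unadjusted p under 0.05, and 0.0%.

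At time 12 edgeR called 0 of 50 members between transplants and mesophotic controls, with 16 at an unadjusted p under 0.05, and 0.112% of all isogroups. That percentage is for adjusted calls, and the share of all isogroups at the unadjusted level is not given. limma called 0 of 112, with 10 at an unadjusted p under 0.05, and 0.014%. Against shallow controls edgeR called 2 of 50 members, both lower in transplants, and 8.3% of all isogroups, while limma called 0 of 112, with 13 at an unadjusted p under 0.05, and 0.014%. The 2 were Mcavernosa03499 (carboxypeptidase) and Mcavernosa08236 (cathepsin Z), detected in 0 of 5 transplants and in 3 and 5 of 9 shallow controls, with edgeR adjusted p of 0.0459 and 0.0497. With 1 library left out at a time the calls held in 37 and 23 of 45 cases, with adjusted p up to 0.0850 and 0.0953. Mesophotic and shallow controls at time 12 differed in 0 members by either tool, with 3 and 1 at an unadjusted p under 0.05. edgeR called 0.0% and limma 0.014% of all isogroups.

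At time 12 no abundant member passed edgeR's threshold between transplants and either control, and 2 of 50 members stood above mesophotic controls in all transplants, where 0.279% of all isogroups tested did. None of the 50 lay below in all transplants, where 2.15% of all isogroups did. The 2 that stood above are both among the 10 most abundant members, and the share over isogroups of like abundance was not computed. Mcavernosa13270 (ADAMTS) had 2215, 370, 494, 1086 and 1623 CPM in transplant replicates 1, 2, 3, 5 and 6, and 0.0, 21.2 and 119 CPM as lowest, median and highest in mesophotic controls. These groups did not overlap. Shallow controls at time 12 had 0.0, 55.3 and 1341 CPM and overlapped the transplants, and mesophotic controls at time 6 reached 2353 CPM. Baselines of the mesophotic controls had 133, 1286 and 2457 CPM, a range that holds each transplant value of time 12. Baselines of the transplanted colonies had 33.9, 317 and 931 CPM. By inferred barcode run, transplants at time 12 were in runs 4, 5 and 7 and mesophotic controls in runs 7 and 8, and within run 7 Mcavernosa13270 had 1086 and 1623 CPM in 2 transplants and at most 119 CPM in 3 mesophotic controls. The difference from mesophotic controls was 5.32 in edgeR (SE 1.51, adjusted p 0.0664) and 4.87 in limma (adjusted p 0.110), and it passed the threshold in 2 of 53 alternatives. Mcavernosa22587 (cathepsin) had 977, 930, 348, 918 and 2408 CPM in the same transplants and 0.0, 44.95 and 339 CPM in mesophotic controls, where the lowest transplant (348 CPM) lay just above the highest control (339 CPM), while shallow controls had 31.6, 207 and 521 CPM and overlapped the transplants. Its difference from mesophotic controls was 3.75 in edgeR (SE 1.40, adjusted p 0.0713) and 3.88 in limma (SE 1.17, adjusted p 0.143), and 1 of 53 alternatives passed. In run 7 the 2 transplants had 918 and 2408 CPM and the 3 mesophotic controls at most 198 CPM.

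The leading astacin Mcavernosa12310 lay between 4946 and 11110 CPM with a median of 7323 in the 5 transplants at time 12. Mesophotic controls ranged from 1841 to 6168 CPM with a median of 2407, and shallow controls from 831 to 7566 with a median of 2924, so both overlapped the transplants with the sites pooled. Within each site they did not. At WFGB 3 transplants had 4946 to 7323 CPM, 5 mesophotic controls 1841 to 3357 and 5 shallow controls 831 to 3912 (exact permutation p 0.0357 against either control, adjusted p 0.093 over 26 tests). At EFGB 2 transplants had 7760 and 11110 CPM, 1 mesophotic control 6168 and 4 shallow controls 2924 to 7566. The share of all isogroups that do so was not computed. The edgeR difference from mesophotic controls was 1.85 (SE 0.792, adjusted p 0.102) and the limma one 1.34 (adjusted p 0.385), and no alternative among 53 passed. Members together took 1.51% to 1.98% of host counts in transplants, 0.933% to 1.93% in mesophotic and 0.985% to 2.31% in shallow controls at time 12. Transplants there detected a median of 1633 host isogroups, beside 4096 and 3221 in the controls, and symbiont counts were a median of 0.550% of all counts, beside 11.1% and 8.71%. The part of these differences in the levels above was not tested.

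Within arms between times, edgeR called 6 of 50 members in transplants, 1 higher and 5 lower at time 12, and 9.5% of all isogroups. limma called 0 of 112, with 9 at an unadjusted p under 0.05, and 0.0279%. Of the lower ones, Mcavernosa00873 (beta subunit of the mitochondrial processing peptidase) and Mcavernosa03660 (zinc finger with UFM1-specific peptidase domain) were detected in 3 and 6 of 8 transplants at time 6 and in 0 of 5 at time 12, with edgeR adjusted p of 0.0472 and 0.0484. With 1 library left out at a time the calls held in 37 of 45 and in 11 of the 20 cases where the isogroup passed the filter. The higher one, Mcavernosa16763 (dipeptidyl peptidase 3), was detected in 0 of 8 and 1 of 5, and without that library, transplant replicate 2, the edgeR difference was -0.061. In mesophotic controls edgeR and limma both called 0 members, with 6 and 8 at an unadjusted p under 0.05, and 0.0% of all isogroups by either tool. Time and title code cannot be told apart, since all libraries of time 12 carry 1 code and all but 2 of time 6 another. The 2 are transplants, which carry the code of time 12.

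In shallow controls edgeR called 1 of 50 members between times and 5.34% of all isogroups, and limma 1 of 112 and 0.279%. Detected host isogroups moved with time in these controls, from a median of 1485 at time 6 to 3221 at time 12, as did symbiont counts, from 3.37% to 8.71% of all counts, and the part of either in the results below was not tested apart from the covariate. limma called Mcavernosa13270 (ADAMTS). Its lowest, median and highest values were 81.9, 1749 and 8567 CPM at time 6 and 0.0, 55.3 and 1341 CPM at time 12, with overlapping ranges. The limma difference was -4.09 (SE 0.971, adjusted p 0.028) and the edgeR one -3.33 (SE 1.11, adjusted p 0.0529). With the detected-isogroup covariate limma gave -4.05 (adjusted p 0.0567), which ends the call. Leaving out 1 library at a time moved the edgeR adjusted p between 0.0235 and 0.107, under 0.05 in 14 of 45 cases. At EFGB 5 libraries of time 6 lay between 1676 and 8567 CPM and 4 of time 12 between 0.0 and 96.4 CPM, with a log2 CPM difference of -7.26 (exact permutation p 0.0159, the smallest that 4 against 5 libraries allow, adjusted p 0.0589 over 26 such tests). At WFGB it was -1.40 (exact permutation p 0.270). Both tests took the libraries of the 2 times as independent and ignored the colony pairs given next. Title tags pair 9 shallow colonies across the times, and Mcavernosa13270 was lower at time 12 in 8 of 9, with a mean within-colony log2 CPM difference of -4.10 (SE 1.24, exact sign-flip permutation p 0.00781, adjusted p 0.0391 over the 10 most abundant members). With the colony as a replicate block it was called by limma (-4.10, adjusted p 0.0172) and not by edgeR on these 9 colonies (-4.34, adjusted p 0.125). edgeR alone called Mcavernosa17717 (specific peptidase) in the unpaired fit, detected in 1 of 10 shallow controls at time 6 and 0 of 9 at time 12 (adjusted p 0.0177).

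The carboxypeptidase Mcavernosa15249 had higher values at time 12 in most shallow controls, without passing the threshold of either tool. It had 0.0, 717 and 5972 CPM as lowest, median and highest at time 6 and 1437, 3310 and 14216 CPM at time 12, with 1 of 10 libraries at time 6 without a count. The difference was 1.84 in edgeR (SE 0.786, adjusted p 0.150) and 2.61 in limma (SE 0.904, adjusted p 0.286). Within colonies it was higher at time 12 in 8 of 9, with a mean log2 CPM difference of 2.54 (SE 0.857, exact sign-flip permutation p 0.0117, adjusted p 0.0391 over the same 10). With the colony as a replicate block it passed neither in limma (adjusted p 0.226) nor in edgeR (adjusted p 0.295). Of the other members tested within colonies, Mcavernosa28252 (protease) was higher at time 12 in 8 of 9, with a difference of 2.74 (SE 0.791, exact sign-flip permutation p 0.00781, adjusted p 0.0391). Neither tool called it across all isogroups (edgeR 2.99, adjusted p 0.169, and limma 2.85, adjusted p 0.288), nor with the colony as a replicate block (adjusted p 0.336 and 0.219). Among the 10 it had the highest correlation with detected isogroups, as given above, and with them as a covariate its limma difference was 1.96 (adjusted p 0.830). The remaining 7 had adjusted p from 0.0781 to 0.871. In transplants at time 12 the values of Mcavernosa15249 were 215 to 2898 CPM with a median of 1350, inside the range of mesophotic controls, 13.2 to 9000 CPM.

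**Figure D5:**
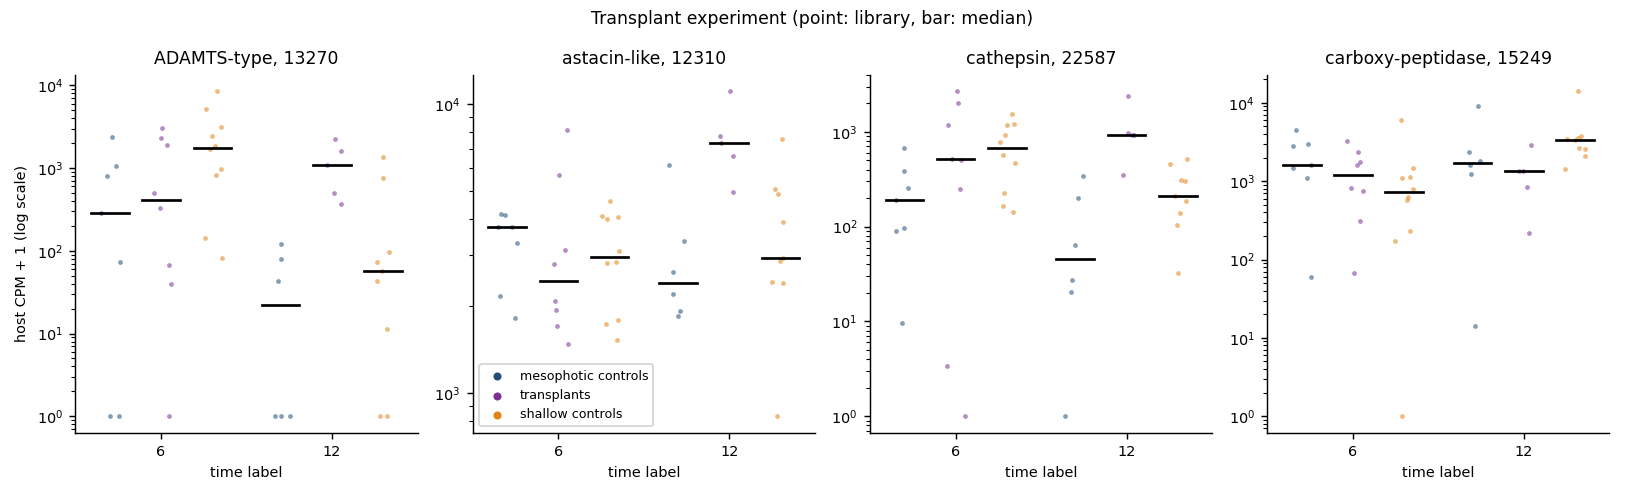
CPM plus 1 on a log scale of Mcavernosa13270, Mcavernosa12310, Mcavernosa22587 and Mcavernosa15249 at time labels 6 and 12, 1 panel per isogroup, 1 point per library, coloured by arm, with a bar at the median. At time 12 the transplants lie above all mesophotic controls for Mcavernosa13270 (370 to 2215 against 0.0 to 119 CPM) and Mcavernosa22587 (348 to 2408 against 0.0 to 339 CPM). With the sites pooled, as drawn, they overlap both controls for Mcavernosa12310 and Mcavernosa15249.

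Changes from baseline to time 6 were compared in the transplants and beyond those of mesophotic controls. Both tools compared group means here and did not pair a colony with its own baseline. In transplants edgeR called 0 of 50 members, with 6 at an unadjusted p under 0.05, and 0.0% of all isogroups. limma called 0 of 112, with 14 at an unadjusted p under 0.05, and 0.0%. Beyond mesophotic controls edgeR called 0 of 50, with 8 at an unadjusted p under 0.05, and 0.559% of all isogroups. limma called 0 of 112, with 3 at an unadjusted p under 0.05, and 0.0%. Baseline values of the cathepsin Mcavernosa22587 were 0.0, 73.1 and 366 CPM in transplanted colonies, beside 0.0, 512 and 2703 CPM in transplants at time 6, with an edgeR adjusted p of 0.206. The chymotrypsin-like Mcavernosa20219 had a median of 401 CPM at baseline and 253 CPM at time 6 in transplants, and its ranges overlapped.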

How the data were processed

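The authors deposited a table of unnormalized counts, with isogroups of coral and symbiont in rows and libraries in columns, and a list of gene names. How reads were filtered, aligned and cleared of duplicates is not given in the sources used here. Host isogroups were scaled within the host total. Libraries under 20000 host counts were left out. No 2 libraries had identical host counts. Members, classes and companion lists were chosen by words in names, with earlier results of these data known.

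edgeR 4.0.16 in R 4.3.3 (robust quasi-likelihood, TMM, filterByExpr) was the main test, with 1 mean per site and depth for natural libraries, and 1 mean per arm and time plus site for the experiment. limma 3.58.1 (trend, robust) on log2 CPM (prior count 2, isogroups detected in at least 10% of libraries) was the main alternative, and DESeq2 1.42.0 another. The limma scale understates changes of low isogroups. Named genes were the 10 most abundant members, those called by both tools, up to 2 per direction called by edgeR alone in each comparison, and class leaders. Others, named after their values were seen, were Mcavernosa13270, Mcavernosa22587, Mcavernosa12310, Mcavernosa15249 and Mcavernosa28252 in the experiment and Mcavernosa28252 at EFGB. Both tools were tested on simulated data. Permutation tests were 2-sided.

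Colonies tied timed libraries to baselines through title tags, and 26 colonies had repeated libraries. The correlation within colonies was 0.061 in limma. Tests within the 9 shallow colonies sampled at both times were chosen after seeing the data. Gene folds of edgeR for isogroups detected in few libraries depend on single libraries, and sampling depth limits what can be seen for members detected in few libraries. No intervals for single libraries are given.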

Additional observations from a re-analysis of the deposited data

Results flagged for a closer look

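Single libraries stood apart from the rest of their experiment group for several of the 10 most abundant members. This was tested by Dixon's criterion in the 6 experiment groups, on CPM of the 10 members and on the percent of host counts of all members together, 66 combinations in all, and 15 met it. Chance gives about 5% for values that follow a normal distribution, which skewed CPM with many 0s do not, so the rate chance gives here is not known. All 15 are high values of single members. At time 6 they were 560 CPM of Mcavernosa28252 (protease), 1209 CPM of Mcavernosa29804 (astacin-like) and 1053 CPM of Mcavernosa32290 (peptidase M20) in transplants. Mesophotic controls at time 6 had 5107 CPM of Mcavernosa29351 (aminopeptidase) and 1742 CPM of Mcavernosa32290, and shallow controls 5972 CPM of Mcavernosa15249 (carboxy-peptidase) and 1240 CPM of Mcavernosa21929 (serine carboxypeptidase 1). At time 12 transplants had 682 CPM of Mcavernosa21929 and 573 CPM of Mcavernosa29804. Mesophotic controls had 6168 CPM of Mcavernosa12310 (astacin-like), 9000 CPM of Mcavernosa15249 and 1678 CPM of Mcavernosa29351. Shallow controls had 14216 CPM of Mcavernosa15249, 1847 CPM of Mcavernosa28252 and 551 CPM of Mcavernosa32290.

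edgeR's F test of depth by site called 20 named members and 2 named companions, where it called 43.2% of all isogroups tested. Many of these members were named because edgeR called them in some comparison, so their number is not a share of the members. The edgeR adjusted p was 0.0318 for Mcavernosa04556 (signal peptide peptidase like), 1.40e-06 for Mcavernosa03319 (matrix metallopeptidase) and 6.86e-07 for Mcavernosa29915 (OMA1 homolog). Of the 20 named members, limma passed its threshold for the same 3 alone, among the 6 members that it called. With the detected-isogroup covariate limma called none of the 3, with adjusted p of 0.254, 0.166 and 0.529. Of the 10 most abundant members, it was 0.00961 for Mcavernosa20219 (chymotrypsin-like), 0.0492 for Mcavernosa21929 (serine carboxypeptidase 1), 0.0278 for Mcavernosa29351 (aminopeptidase) and 0.00424 for Mcavernosa32290 (peptidase M20). Of the others, edgeR gave 1.72e-07 for Mcavernosa00055 (dipeptidyl-peptidase domain), 7.36e-06 for Mcavernosa07442 and 0.00651 for Mcavernosa07441 (both LON peptidase N-terminal domain and RING finger), and 7.85e-06 for Mcavernosa17701 (mannan-binding lectin serine peptidase 1). It gave 0.000236 for Mcavernosa31111 (ADAM 10), 0.000396 for Mcavernosa05847 (protease), 0.000705 for Mcavernosa10847 (astacin) and 0.00103 for Mcavernosa08236 (cathepsin Z). It gave 0.008003 for Mcavernosa03660 (zinc finger with UFM1-specific peptidase domain), 0.00813 for Mcavernosa02764 (mitochondrial processing peptidase), 0.0171 for Mcavernosa16763 (dipeptidyl peptidase 3), 0.0259 for Mcavernosa03317 (matrix metallopeptidase) and 0.0259 for Mcavernosa05915 (apoptosis-related cysteine peptidase). Beside the members, it was 0.000559 for Mcavernosa02896 (thrombin) and 0.00646 for Mcavernosa28398 (hormone-sensitive lipase).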

How the results depend on the processing

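The difference of Mcavernosa20219 at PRTER kept its direction and its side of the threshold under 11 of 11 alternatives, though those without X-14 removed no PRTER library. Counts of members called did not hold to the same degree. Counts that moved by more than 1.5 times are given here against edgeR's values in the report, and the other counts stayed within that range. Apart from the limma fit of the report, the share of all isogroups called is not given for these settings, and the members tested changed with the filter. The counts therefore show only how the number called depends on the setting and are not a result about peptidases. limma gave 24 between EFGB and WFGB, 18 at EFGB, 6 for depth by site, 1 at PRTER, 0 over the sites, at CBC, at WFGB, for transplants against mesophotic controls at 6, for transplants against shallow controls at 6, for transplants against shallow controls at 12 and between times in transplants. limma with the detected-isogroup covariate gave 1 at PRTER, 0 over the sites, at CBC, at EFGB, at WFGB, between EFGB and WFGB, for depth by site, for transplants against mesophotic controls at 6, for transplants against shallow controls at 6, for transplants against shallow controls at 12, between times in transplants and between times in shallow controls. DESeq2 gave 16 for depth by site, 10 over the sites and for transplants against shallow controls at 12, 9 for transplants against mesophotic controls at 12, 6 between EFGB and WFGB and between times in shallow controls, 5 for transplants against shallow controls at 6, 3 from baseline in transplants and from baseline beyond controls, 2 at WFGB and between controls at 6, 1 between controls at 12 and between times in mesophotic controls. RLE size factors gave 13 at CBC, 10 over the sites, 5 for transplants against shallow controls at 12, 4 at EFGB, 3 for transplants against mesophotic controls at 12, 0 at WFGB and for transplants against mesophotic controls at 6. A minimum of 50000 host counts gave 17 for depth by site, 14 between times in shallow controls, 7 between controls at 6, 6 for transplants against shallow controls at 6, 5 between EFGB and WFGB, 3 at EFGB, 0 at WFGB, for transplants against mesophotic controls at 6, for transplants against shallow controls at 12 and between times in transplants. The barcode run as a term gave 4 at EFGB, 0 at WFGB and between EFGB and WFGB. A filter of detection in 10% of libraries gave 60 for depth by site, 36 at CBC, 31 over the sites, 29 at EFGB and at PRTER, 23 between EFGB and WFGB, 18 for transplants against shallow controls at 12, 13 between times in shallow controls, 12 between times in transplants, 9 for transplants against shallow controls at 6 and between controls at 6, 8 for transplants against mesophotic controls at 6, 4 at WFGB, 3 from baseline beyond controls, 2 from baseline in transplants. No filter on low counts gave 114 for depth by site, 68 at PRTER, 58 at CBC, 57 between EFGB and WFGB, 56 at EFGB, 37 at WFGB, 36 over the sites, 20 between times in shallow controls, 12 between controls at 6, 10 for transplants against mesophotic controls at 6, 9 for transplants against shallow controls at 6, 8 for transplants against shallow controls at 12, 2 from baseline beyond controls. Fitting each site alone gave 1 at PRTER, 0 at CBC, at EFGB and at WFGB. Leaving out X-14 gave 10 over the sites, 3 at EFGB, 1 between EFGB and WFGB, 0 at WFGB. limma without X-14 gave 8 between EFGB and WFGB, 1 at EFGB, at PRTER and for depth by site, 0 over the sites, at CBC and at WFGB.

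With the colony as a replicate block, limma called 0 for transplants against mesophotic controls at 6, for transplants against shallow controls at 6, for transplants against shallow controls at 12 and between times in transplants. It called 1 between times in shallow controls, Mcavernosa13270, while edgeR without the block called 1 other, Mcavernosa17717. edgeR with the colony as a replicate block, on colonies sampled at both times, was chosen after seeing the data. It called 0 between times in transplants (12 members tested), 0 in mesophotic controls (6 tested) and 0 in shallow controls (14 tested), where fewer libraries and members entered. With 1 timed library left out in turn, the edgeR count was 0 to 2 for transplants against mesophotic controls at 6, 0 to 0 for transplants against mesophotic controls at 12, between controls at 12, between times in mesophotic controls, from baseline in transplants and from baseline beyond controls, 0 to 4 for transplants against shallow controls at 6, 0 to 3 for transplants against shallow controls at 12 and between controls at 6, 0 to 7 between times in transplants, 0 to 8 between times in shallow controls.

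Directions reversed in 4 cases, and the cause was not tested. Without X-14 Mcavernosa03319 at EFGB was 0.64 in edgeR and 0.15 in limma. Mcavernosa02896 over the sites was 0.16 in limma without X-14. Mcavernosa16763 between times in transplants was -0.061 without transplant replicate 2 at time 12, and up to 7.31 without other single libraries. With both weaker filters every edgeR count was at or above the reported one, and more members with few detections were tested. Depth limits what can be seen, since 136 of 289 members were detected in at most 10 of 311 libraries.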
